A study of Mus musculus with 6 samples.

Results

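The OAS family genes described here were the 9 genes *Oas1a*, *Oas1b*, *Oas1c*, *Oas1f*, *Oas1g*, *Oas2*, *Oas3*, *Oasl1* and *Oasl2*, taken by gene name from the abundance tables of 6 RNA-seq libraries, each of which listed 56884 genes. Of these 9 genes, 8 had a TPM (an abundance per transcript length, as a share of all transcripts) of at least 0.5 in at least 3 libraries and were among the 15426 genes tested, and *Oas1f* was below that level. All 6 libraries came from an immortalised line of stromal vascular fraction (SVF) cells of mouse subcutaneous white adipose tissue (scWAT). The SVF is a mixed fraction that includes adipocyte precursors, and the line was taken at day 2 of beige adipogenic differentiation. The cells of 3 libraries overexpressed PPARγ2 K382Q, in which glutamine resembles an acetylated lysine, and those of the other 3 overexpressed PPARγ2 K382R, in which arginine resembles a deacetylated lysine. The labels write these genotypes as PPARr2 K382Q and PPARr2 K382R. Both mutants were delivered with a retroviral vector and selected as stable lines, and all cells had the same induction medium with isobutylmethylxanthine, indomethacin, dexamethasone, insulin, T3 and rosiglitazone. No line with an empty vector or with unmutated PPARγ2 was part of the comparison, so a value that is lower in one mutant is equally a value that is higher in the other, and the mutant and its selected line cannot be told apart.

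OAS enzymes are interferon-inducible sensors of double-stranded RNA. On binding such RNA they join ATP into short 2′,5′-linked oligoadenylates (2-5A), which act as second messengers of the antiviral response. The OAS-like genes carry ubiquitin-like domains behind the OAS fold. Type I interferon switches on genes of the family through factors such as IRF9 that bind the interferon-stimulated response element (ISRE) in promoters.

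That element could be looked for in the promoters of 7 of the 9 genes. RefSeq promoter windows of 300 bases (GRCm38.p6, from 250 bases before to 50 after the start of transcription) had no entry for *Oas1b* and *Oas2*. The ISRE core was searched on both strands with the letters GAAANNGAAA, and 4 of the 7 genes had it, against 3.44% of 32851 windows of the same length from 27025 genes. The stretches below are shown because they hold these letters, which are in capitals where present, or, for *Oasl1*, because the gene differed most between the mutants and its window holds no match. Each is written 5′ to 3′ on the strand of its gene.
Oas1a (chr5:120907526-120907585, minus strand): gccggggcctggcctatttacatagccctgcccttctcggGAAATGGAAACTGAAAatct
Oas1g (chr5:120887614-120887673, minus strand): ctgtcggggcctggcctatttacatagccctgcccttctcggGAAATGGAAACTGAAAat
Oas1c (chr5:120812598-120812657, minus strand): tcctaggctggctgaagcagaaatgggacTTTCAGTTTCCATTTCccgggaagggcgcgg
Oas3 (chr5:120777710-120777769, minus strand): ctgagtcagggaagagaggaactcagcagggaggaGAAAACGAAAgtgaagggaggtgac
Oasl1 (chr5:114923180-114923239, plus strand): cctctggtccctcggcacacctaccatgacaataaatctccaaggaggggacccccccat

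*Oas1a* and *Oas1g* held the same 2 overlapping matches, which began at -20 and -14 from the start of *Oas1a* and at -18 and -12 from that of *Oas1g*. The 250 bases upstream of the pair were 83.14% identical. *Oas1c* had 2 overlapping matches on the opposite strand, at -114 to -105 and -108 to -99, so its capitals read as the reverse complement. That opposite strand is the strand of *Oas1b*, which starts head to head with *Oas1c*. Read on it, the capitals are the same letters as in *Oas1a* and *Oas1g*. The match therefore cannot be assigned to *Oas1c* rather than *Oas1b* from this window, and its use by either gene was not tested. The single match of *Oas3* lay at -75 to -66. The interferon-gamma activated site (GAS, letters TTCNNNGAA, which read the same on both strands) was present in 1 of the 7 windows, that of *Oas1a* at -98 to -90, against 8.30% of all windows. *Oas1f*, *Oasl1* and *Oasl2* had neither motif in their windows, which says only that these letters are not within them.

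The study asked how acetylation of PPARγ2 at the mutated lysine changes gene expression, including that of interferon-stimulated genes, during beige differentiation. Every tested OAS family gene had lower levels in PPARγ2 K382Q- than in PPARγ2 K382R-overexpressing cells. The differences ran from a log2 fold change of -0.81 for *Oas1c* to -1.92 for *Oasl1*, with a median of -1.24 over the 8 genes, and the median over all 15426 genes was -0.14. All 8 were lower at an adjusted p under 0.05 (limma), as were 36.9% of all tested genes. With a fold change over 2 required as well, 6 of the 8 were called, against 2.61% of all tested genes. In all 8 the highest K382Q library lay below the lowest K382R library, which held for 42.8% of all tested genes.

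The TPM of the 9 genes together was 104.6, 122.3 and 107.3 in the 3 K382Q libraries and 299.7, 307.3 and 280.1 in the 3 K382R libraries. The family thus made up 2.65-fold more of the transcripts in K382R cells. Since TPM has a fixed sum in every library, this is a share and not an amount of RNA, and in bulk RNA fewer cells that transcribe a gene and less of its RNA per cell cannot be told apart.

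**Figure D1:**
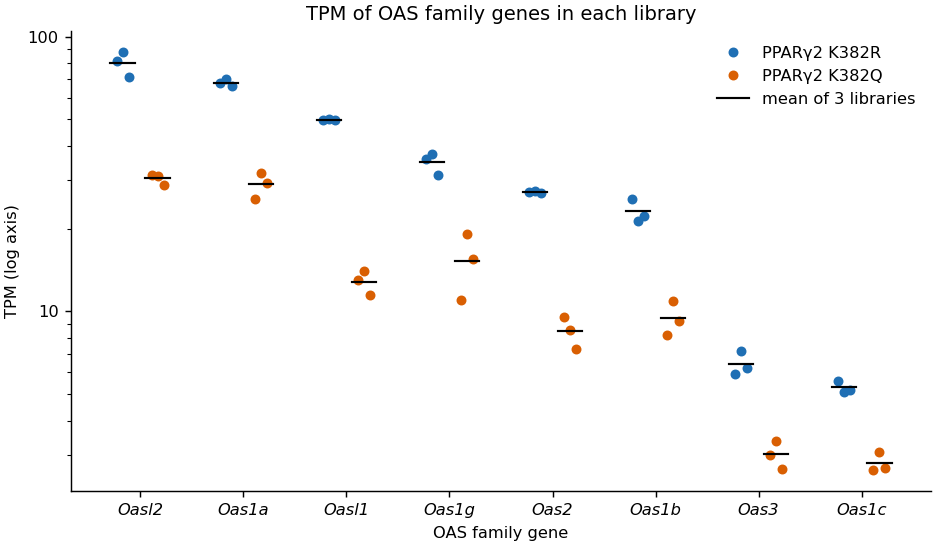
TPM (log axis) of the 8 tested OAS family genes in each library, with blue points for PPARγ2 K382R, orange points for PPARγ2 K382Q and a black line at the mean of 3 libraries; genes are ordered by their mean in K382R cells. In each gene the 3 orange points lie below the 3 blue points, from *Oasl2* (30.5 against 80.3) down to *Oas1c* (2.80 against 5.30).

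Among the OAS-like genes, *Oasl1* (ENSMUSG00000041827.16, chr5:115061299-115075974 in GRCm39, plus strand) encodes a protein without synthetase activity that is known to hold back translation of the mRNA of *Irf7*, the master factor of type I interferon production. Its TPM was 13.0, 14.1 and 11.5 in K382Q libraries and 49.8, 50.3 and 49.9 in K382R libraries. The K382R libraries were nearly level, and the groups were far apart. The mean was 3.89-fold higher in K382R cells than in K382Q cells (12.8 ± 1.29, SD, n = 3), and the log2 fold change was -1.92 (95% interval -2.09 to -1.76, adjusted p = 1.29e-06, limma). That was the 43rd lowest log2 fold change of the 15426 tested.

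Its neighbour *Oasl2* (ENSMUSG00000029561.18, chr5:115034997-115050295, plus strand) has kept synthetase activity in the mouse and had the highest TPM of the family in K382R cells, while in K382Q cells its values overlapped those of *Oas1a*. Its TPM was 31.5, 31.1 and 28.9 in K382Q and 81.3, 87.9 and 71.7 in K382R libraries. The spread was wider among K382R libraries, and the lowest of them was still above every K382Q library. The log2 fold change was -1.38 (SE, the standard error, 0.0750, limma adjusted p = 6.50e-06), or 2.63-fold between the means.

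*Oas2* (ENSMUSG00000032690.17, chr5:120868398-120887918, minus strand) and *Oas3* (ENSMUSG00000032661.10, chr5:120891163-120915726, minus strand) encode the larger synthetases, built from repeated OAS units. The TPM of *Oas2* was 9.56, 8.60 and 7.30 in K382Q and 27.3, 27.5 and 27.1 in K382R libraries. After *Oasl1* it had the second largest difference of the family, with K382R libraries again nearly level. Its log2 fold change was -1.64 (SE 0.0910, limma adjusted p = 7.15e-06), 3.22-fold between the means. *Oas3*, whose human counterpart makes most of the 2-5A in virus-infected cells, was much less abundant, with a TPM of 3.01, 3.37 and 2.68 in K382Q and 5.90, 7.18 and 6.24 in K382R libraries. The groups did not overlap. Its log2 fold change was -0.98 (SE 0.116, limma adjusted p = 0.000306), just under 2-fold on the log2(TPM + 0.5) scale, although the ratio of the means was 2.13. It passed 2-fold with a pseudocount of 0.1 (-1.07), without K382R replicate 1 (-1.04) or K382Q replicate 2 (-1.05). It fell short without K382Q replicate 1 (-0.98) or 3 (-0.91), and without K382R replicate 2 (-0.91) or 3 (-0.999). It was farther from 2-fold with a pseudocount of 1 (-0.89), quantile normalization (-0.85), median-ratio scaling (-0.84) or FPKM (-0.78).

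Of the small OAS1 genes, *Oas1a* (ENSMUSG00000052776.11, chr5:121034319-121045584, minus strand) and *Oas1g* (ENSMUSG00000066861.15, chr5:121014205-121025676, minus strand) encode active synthetases and lie side by side. The TPM of *Oas1a* was 25.6, 32.0 and 29.4 in K382Q and 68.0, 70.1 and 66.4 in K382R libraries. That of *Oas1g* was 11.0, 19.1 and 15.5 against 35.8, 37.5 and 31.3. Neither gene overlapped between the groups, and in both the K382Q libraries were spread, with replicate 1 lowest, more so for *Oas1g*. The log2 fold change of *Oas1a* was -1.22 (SE 0.0761, limma adjusted p = 1.29e-05), and that of *Oas1g* was -1.20 (SE 0.176, limma adjusted p = 0.000904). Without K382Q replicate 1 the log2 fold change of *Oas1g* was -0.99 (adjusted p = 0.000523, limma), which is under 2-fold.

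The pair also shares sequence, so the deposited values rest on how reads that match both genes were assigned. Of all stretches of 150 bases in the canonical *Oas1a* transcript of GENCODE vM39, 32.0% occurred unchanged in a transcript of *Oas1g*, and 30.1% of those of *Oas1g* occurred in *Oas1a*. For the other 7 genes this share was 0 against every gene of the OAS family in the annotation. At 50 bases, the shares were 56.8% for *Oas1a*, 55.4% for *Oas1g*, 10.7% for *Oas1c*, 2.93% for *Oas1f* and 1.34% for *Oas1b*, and 0 for *Oas2*, *Oas3*, *Oasl1* and *Oasl2*. The sum of their TPM is not wholly free of that assignment either, since TPM divides reads by the length of each gene. It was 36.7, 51.1 and 45.0 TPM in K382Q and 103.8, 107.7 and 97.6 TPM in K382R libraries, without overlap, and differed by -1.22 on the log2 scale (SE 0.108, limma adjusted p = 7.11e-05). The TPM ratio of *Oas1a* over *Oas1g* was 2.33, 1.68 and 1.90 in K382Q and 1.90, 1.87 and 2.12 in K382R libraries, so it overlapped between the groups and was highest in K382Q replicate 1.

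*Oas1b* (ENSMUSG00000029605.18, chr5:120950700-120962228, plus strand) is the flavivirus resistance gene, and in common laboratory strains it carries a premature stop. GENCODE gives its canonical transcript the type for a loss of function in the reference strain. Its TPM was 8.23, 11.0 and 9.26 in K382Q and 25.8, 21.4 and 22.3 in K382R libraries, 2 groups well apart. The log2 fold change was -1.25 (SE 0.111, limma adjusted p = 7.37e-05). *Oas1c* (ENSMUSG00000001166.18, chr5:120938259-120950579, minus strand), which starts head to head with *Oas1b*, had the smallest difference of the 8 genes. Its TPM was 2.65, 3.07 and 2.68 in K382Q and 5.60, 5.11 and 5.18 in K382R libraries. The groups did not overlap, and the log2 fold change of -0.81 (95% interval -1.05 to -0.58, limma adjusted p = 0.000374) was under 2-fold. The ratio of *Oas1b* to *Oas1c* TPM was 3.37 ± 0.240 in K382Q and 4.36 ± 0.208 in K382R cells (SD, n = 3 each).

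*Oas1f* (ENSMUSG00000053765.5, chr5:120985432-120996049, plus strand) was listed at 0 in all 3 K382Q libraries and at a TPM of 0.139, 0.160 and 0.116 in the K382R libraries. These values stand on a mean coverage of 0.418, 0.510 and 0.292 reads per base, so *Oas1f* was near the limit of detection in both groups. The family members outside the 9 were also below the filter. *Oas1d* was listed at 0 in K382Q libraries and at 0, 0.0335 and 0.187 in K382R libraries, and *Oas1e* was above 0 in 1 library, K382R replicate 1, at 0.0973. *Oas1h* had a TPM of 0.293, 0.150 and 0.112 in K382Q and 0.365, 0.596 and 0.297 in K382R libraries, with the lowest K382R value only just above the highest K382Q value.

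**Figure D2:**
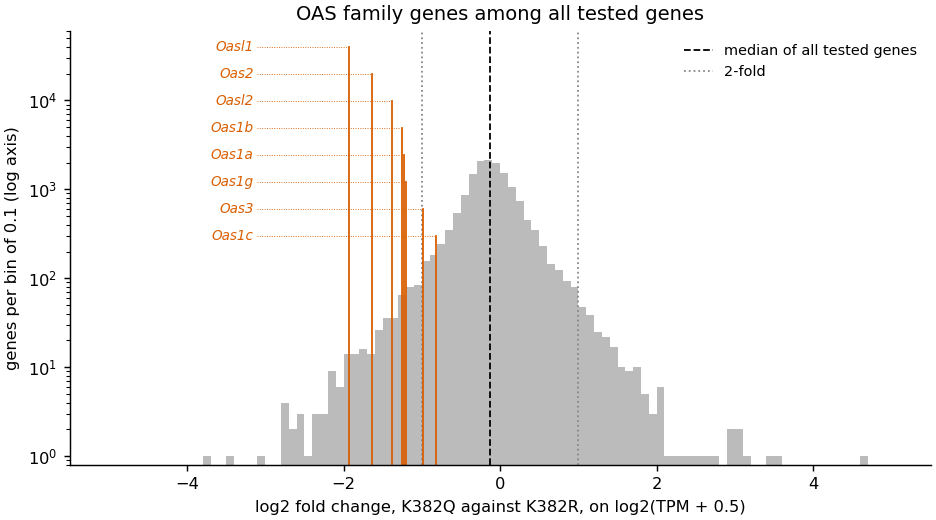
Distribution of log2 fold changes (K382Q against K382R, on log2(TPM + 0.5)) of the 15426 tested genes in grey, as genes per bin of 0.1 on a log axis, with the 8 tested OAS family genes as orange lines whose height carries no value. The dashed line is the median of all genes at -0.14 and the dotted lines mark 2-fold; 6 of the orange lines lie beyond 2-fold on the K382Q-lower side, and those of *Oas3* (-0.98) and *Oas1c* (-0.81) fall short of it.

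The order of the members by TPM was not the same in both groups. In K382R cells it ran *Oasl2*, *Oas1a*, *Oasl1*, *Oas1g*, *Oas2*, *Oas1b*, *Oas3*, *Oas1c* and *Oas1f*, and no neighbours in that order overlapped in their library values. In K382Q cells *Oas1g* stood before *Oasl1* and *Oas1b* before *Oas2*. There the ranges of *Oasl2* and *Oas1a*, of *Oas1g* and *Oasl1*, of *Oas1b* and *Oas2*, and of *Oas3* and *Oas1c* overlapped, so these neighbours were not distinguished by their spread. As a share of the summed TPM of the family, *Oasl1* was 11.5% ± 0.853 in K382Q and 16.9% ± 0.776 in K382R cells. *Oas1c* was 2.52% ± 0.0165 and 1.79% ± 0.115, and *Oasl2* was 27.5% ± 2.39 and 27.1% ± 1.52 (SD, n = 3 for each share). The log2 ratio of *Oasl1* to *Oas3* within a library was 2.09 ± 0.0260 in K382Q and 2.96 ± 0.139 in K382R cells, that of *Oas2* to *Oas3* was 1.49 ± 0.162 and 2.09 ± 0.137, and that of *Oasl1* to *Oasl2* was -1.25 ± 0.0942 and -0.68 ± 0.144 (SD, n = 3 each). These 3 ratios did not overlap between the groups. Each gave p = 0.1 in a two-sided exact permutation test, the smallest p that 3 against 3 allow (0.133 adjusted over 4 pairs, the fourth being *Oas1a* and *Oas1g* at p = 0.9), and the pairs were chosen after their values were seen.

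Within the K382Q group the genes did not move as one. On the log2 scale, K382Q replicate 1 lay below its group mean for *Oas1a* (-0.17), *Oas1b* (-0.18) and *Oas1g* (-0.41), yet was the highest K382Q library for *Oas2* (0.17 above). K382Q replicate 2 lay above its group mean for all 8 tested members. The K382R libraries departed by at most 0.012 from their mean for *Oas2* and *Oasl1*.

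The coverage column put the groups in the same order. Coverage is the mean number of reads over each base of the exons, and it was divided here by the aligned length of the library in Gb. The coverage of *Oasl1* as deposited was 26.2, 35.7 and 23.4 reads per base in K382Q and 122, 132 and 104 in K382R libraries, and that of *Oas1c* was 5.97, 7.49 and 5.87 against 14.8, 15.5 and 12.0. Per Gb, the log2 fold change was -1.76 for *Oasl1*, -1.46 for *Oas2*, -1.19 for *Oasl2*, -1.14 for *Oas1b*, -1.12 for *Oas1a*, -1.05 for *Oas1g*, -0.72 for *Oas3* and -0.67 for *Oas1c*. All 8 had an adjusted p of 0.000770 or lower (limma). The same 6 genes were called, against 168 of the 12491 genes tested by coverage called lower. Each of the 8 log2 fold changes was nearer to 0 by coverage than by TPM, in part because the same pseudocount of 0.5 was added to smaller values. The median over all genes tested was also nearer to 0, at -0.06 by coverage and -0.14 by TPM. Without a pseudocount, the ratio of the means of *Oas3* was 2.08 by coverage and 2.13 by TPM, and that of *Oasl1* was 3.64 and 3.89. Coverage per Gb was close to FPKM for *Oas1a* but only 0.424 to 0.470 of it for *Oasl2*.

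**Figure D3:**
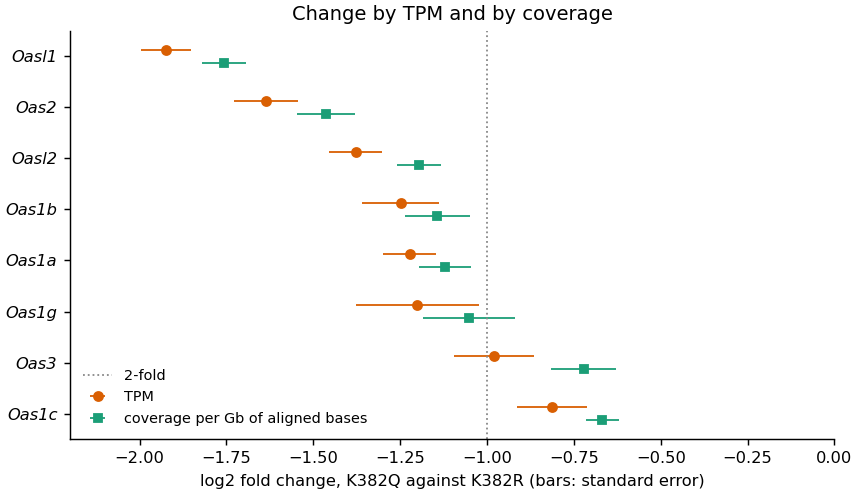
Log2 fold change (K382Q against K382R) with its standard error for each tested OAS family gene, from TPM (orange circles) and from coverage per Gb of aligned bases (green squares), with a dotted line at 2-fold. Each square lies to the right of its circle, and with both measures *Oasl1* is farthest from 0 (-1.92 and -1.76) and *Oas1c* nearest (-0.81 and -0.67).

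The other tested genes of the 2-5A pathway had log2 fold changes nearer to 0 than the OAS genes. *Abce1*, which encodes a ribosome recycling factor, was lower in K382Q cells with a log2 fold change of -0.41 (adjusted p = 0.000101, limma), or -0.26 with median-ratio scaling (adjusted p = 0.000857). *Pde12*, a phosphodiesterase that degrades 2-5A, was at -0.28 (adjusted p = 0.00891, limma), but at -0.14 with median-ratio scaling (adjusted p = 0.124). *Akap7*, whose product can also cleave 2-5A, was higher in K382Q cells at 0.33 (adjusted p = 0.00604, limma). Of the 3 tested genes of this list of 6, thus 2 were lower and 1 higher, 0 passed 2-fold, and the median was -0.28. Among all tested genes 36.9% were lower, 11.1% higher and 2.61% called lower, with a median of -0.14.

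Among 10 sensors and effectors of foreign or misplaced nucleic acids, 9 were lower in K382Q cells at an adjusted p under 0.05 (limma), 0 were higher and 4 also passed 2-fold, against 36.9% of all tested genes lower and 2.61% called lower. The median was -0.96. With median-ratio scaling or quantile normalization 9 were again lower, against 20.4% and 21.0% of all genes, but *Zbp1* alone passed 2-fold, against 1.92% and 1.98% called lower. *Zbp1*, a sensor of Z-form nucleic acid, was lowest at -2.12. *Sting1*, the adaptor of cytosolic DNA sensing, was at -1.12, and the RNA helicases *Ifih1* and *Dhx58* were at -1.05 and -1.02. *Eif2ak2*, which encodes the RNA-dependent kinase PKR, was at -0.71. *Mavs*, the mitochondrial adaptor of the RNA helicases, was at -0.04 and did not pass the test (adjusted p = 0.552, limma).

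Of 14 tested interferon receptors and signalling factors, 12 were lower, 0 higher and 2 not past the test, with a median of -0.33, against 36.9% of all tested genes lower. With median-ratio scaling 9 were lower, against 20.4% of all genes. *Irf7* (-1.94) and *Usp18* (-1.56), a negative regulator of interferon signalling, were called, against 2.61% of all tested genes called lower. *Stat2* and *Irf9*, which encode parts of the complex that binds the ISRE, had log2 fold changes of -0.87 and -0.56 (adjusted p of 5.86e-05 or lower for both, limma). *Ifnar1* was at -0.40, or -0.25 with median-ratio scaling. *Ifnar2* was at -0.19 (adjusted p = 0.0484, limma) and did not pass with median-ratio scaling (-0.04, adjusted p = 0.690). *Prdm16*, a coregulator of beige differentiation, was below the filter, with a TPM of 0.138, 0.113 and 0.0564 in K382Q and 0.0442, 0.0694 and 0.109 in K382R libraries, which overlapped.

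The interferons themselves were near 0. Of 20 interferon genes, 15 were listed at 0 in all 6 libraries and none reached the filter. The highest single TPM was 0.409, and the sum over the 20 genes was 0.201 to 0.547 in K382Q and 0.524 to 0.914 in K382R libraries. *Ifnb1* was listed at 0 in K382Q libraries and at 0.0840, 0.117 and 0.141 in K382R libraries.

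**Figure D4:**
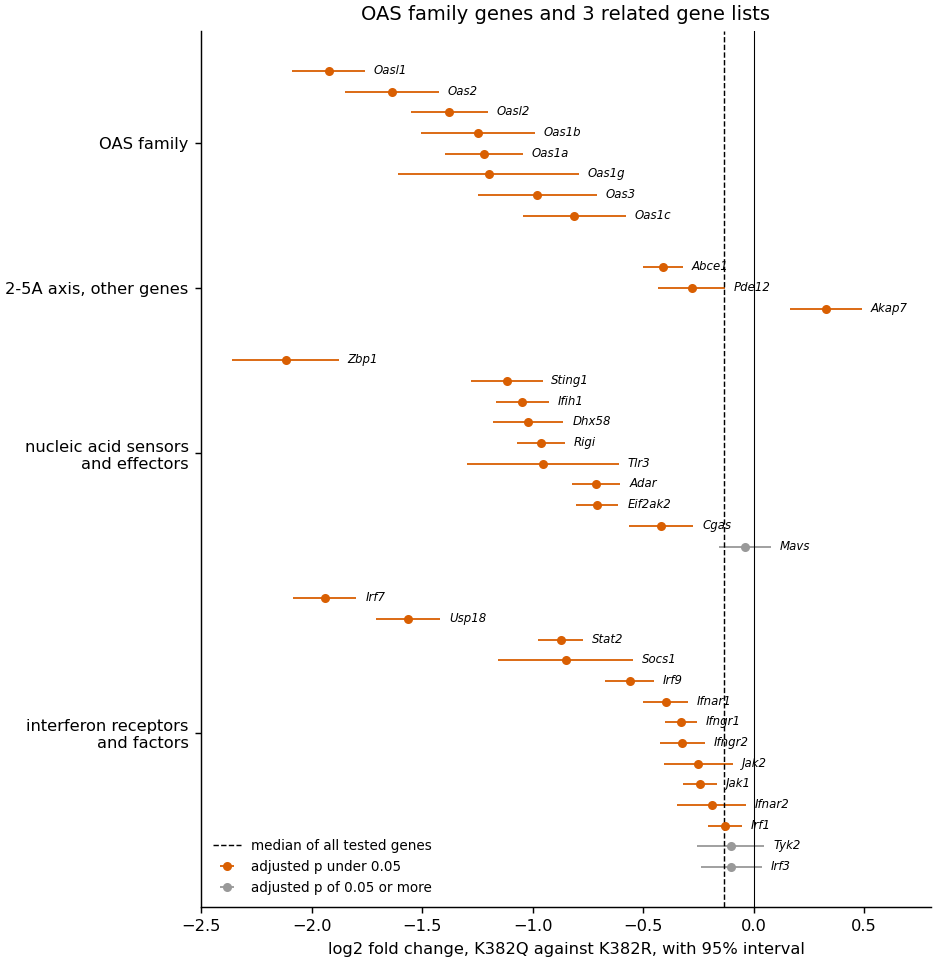
Log2 fold change (K382Q against K382R) with its 95% interval for each tested gene of the OAS family, of the rest of the 2-5A pathway, of the nucleic acid sensors and effectors, and of the interferon receptors and factors. Orange marks an adjusted p under 0.05, grey one of 0.05 or more, and the dashed line is the median of all genes at -0.14; the OAS family lies between -1.92 and -0.81, and *Akap7* alone is to the right of 0 (0.33).

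Other cell types were looked at through their markers. Of 8 leukocyte markers, 5 (*Adgre1*, *Tyrobp*, *Cd3e*, *Ncr1* and *Siglech*) were listed at 0 in all 6 libraries, *Ptprc* was above 0 in K382Q replicate 2 alone, at 0.0129, and the summed TPM of the list was 0.0191 to 0.0269 in K382Q and 0.0236 to 0.177 in K382R libraries. The summed TPM of 3 endothelial markers was 1.54 to 2.16 and 1.63 to 1.76. That of 6 adipocyte precursor markers was lower in K382Q libraries, at 461 to 507 against 769 to 807, nearly all of it *Ly6a*, and *Dpp4* was listed at 0 in all libraries. The 3 tested genes of that list were all lower at an adjusted p under 0.05 (limma), *Pdgfra* (-0.88), *Pdgfrb* (-0.75) and *Ly6a* (-0.72), against 36.9% of all tested genes. With median-ratio scaling the 3 were again lower, against 20.4% of all genes. By either scaling 0 of them passed 2-fold. Of 6 adipocyte markers, 4 were lower in K382Q cells at an adjusted p under 0.05 (limma), *Adipoq* (-1.28), *Cebpa* (-0.81), *Pparg* (-0.43) and *Lpl* (-0.19), and *Plin1* did not pass, against 36.9% of all tested genes lower. *Fabp4* was higher (0.34), against 11.1% of all tested genes higher. With median-ratio scaling 3 were lower and 2 higher, as *Lpl* no longer passed (-0.03, adjusted p = 0.405) and *Plin1* was higher, against 20.4% of all genes lower and 19.8% higher. With quantile normalization 4 were lower and 0 higher, against 21.0% and 19.1% of all genes. By that scaling *Lpl* was at -0.41 (adjusted p = 4.85e-05, limma), and *Fabp4* and *Plin1* did not pass. *Fabp4* made up nearly all of the summed TPM of the list, at 50210 to 53859 in K382Q and 42089 to 43218 in K382R libraries. The part of these differences between the cells in the levels of the OAS genes was not tested. *Pparg*, the gene overexpressed in mutant form, had a TPM of 1333, 1164 and 1104 in K382Q and 1590, 1632 and 1612 in K382R libraries. Its log2 fold change was -0.43 (adjusted p = 0.000977, limma), or -0.28 with median-ratio scaling and -0.57 with quantile normalization. The part of this difference in the OAS values was not tested either.

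The OAS genes lie in 2 places on chromosome 5. *Oas2* to *Oas1a* span 177 kb, and *Oasl1* and *Oasl2* lie 5.79 Mb away. Within 250 kb of a member there were 54 other genes, of which 21 were tested. Of these, 13 were lower in K382Q cells at an adjusted p under 0.05 (limma), 1 was higher and 0 passed 2-fold, with a median of -0.18. Among all tested genes 36.9% were lower, 11.1% higher and 2.61% called lower, with a median of -0.14. With median-ratio scaling 5 of the 21 (23.8%) were lower, against 20.4% of all genes. By the same scaling 1 was higher, against 19.8% of all genes, and the median of the 21 was -0.04. *Ddx54*, an RNA helicase gene, had the lowest log2 fold change (-0.51). *Tpcn1*, which encodes a channel of endosomes and lysosomes, was higher in K382Q cells (0.77), with mean TPM of 18.1 against 10.5. The log2 fold changes of the tested OAS family genes were thus all below those of the tested genes next to them.

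**Figure D5:**
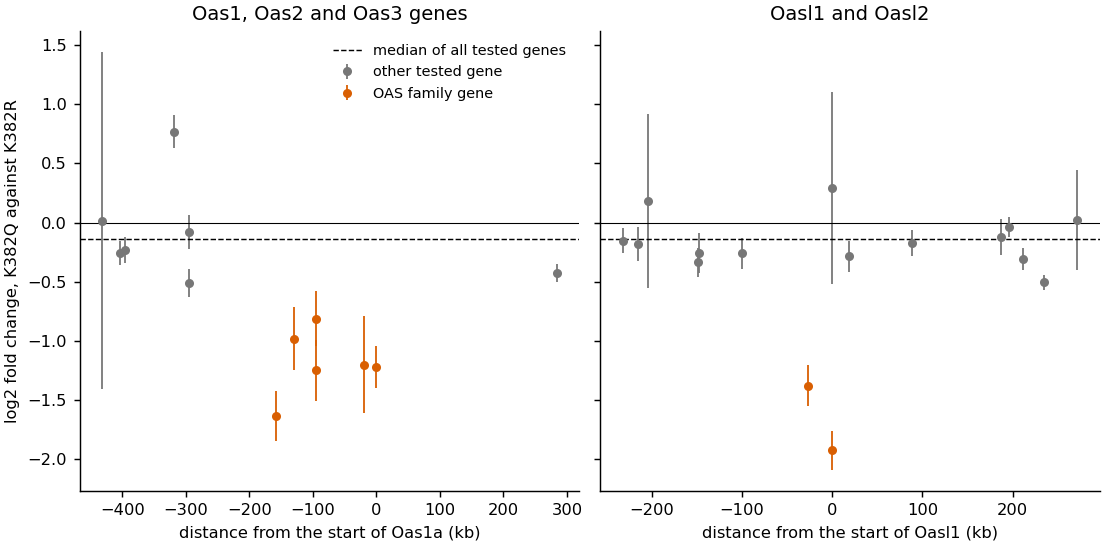
Log2 fold change with its 95% interval for tested genes within 250 kb of an OAS family gene, by distance in kb from the start of *Oas1a* (left) or *Oasl1* (right), with OAS family genes in orange, other genes in grey, and a dashed line at the median of all genes. The orange points lie between -1.92 and -0.81, and the grey points between -0.51 (*Ddx54*) and 0.77 (*Tpcn1*).

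The genes whose pattern over the 6 libraries was nearest to the mean pattern of the 8 members were sought among 10638 genes with a mean TPM of at least 5, by the root mean square difference of centred log2 values. The 5 nearest were *Apol9b* (0.0448), *Cyba* (0.0541), *Plaur* (0.0561), *Tubb2b* (0.0593) and *Isg15* (0.0594), and the median of all candidates was 0.587. *Isg15* encodes an interferon-induced ubiquitin-like protein, and its TPM was 124 ± 11.0 in K382Q and 303 ± 5.33 in K382R cells (SD, n = 3 each). *Apol9b* had 99.9 ± 8.77 and 239.8 ± 5.08. *Cyba*, a subunit of NADPH oxidase, *Plaur*, the urokinase receptor, and *Tubb2b*, a tubulin, had log2 fold changes of -1.24, -1.23 and -1.23. Of the members themselves, *Oas1a* was nearest to that mean (0.0688) and *Oasl1* farthest from it (0.317).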

How the data were processed

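RNA was sequenced from 3 biological replicates of each mutant. Per the labels and the methods of the study, reads were aligned to GRCm39 with HISAT2 and quantified with StringTie; the annotation release is not given in the sources used here. The authors deposited 1 table per library, with coverage (mean read depth per base, not normalized), FPKM (normalized by the authors to the aligned bases of the library) and TPM (scaled by the authors to 1000000 per library). The study ran DESeq2 on counts that are not used here. Coverage over FPKM differs between genes, and its most frequent value in a library was taken as the aligned bases, which gave 5.95 to 7.50 Gb of aligned bases in K382Q and 6.53 to 8.15 Gb in K382R libraries, and a TPM above 0 for 22663 to 23837 genes. With no counts, precision is that of 3 replicates. Between 3 and 5 entries per table repeated a gene ID and were summed.

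The filter kept the 15426 genes that reached a TPM of 0.5 in 3 or more of the 6 libraries. Values were taken as log2(TPM + 0.5) and fitted with limma (version 3.58.1, R 4.3.3), letting the variance follow a trend with intensity, and p-values were adjusted by Benjamini-Hochberg over all of these genes. This scale understates the change of low genes. A call needed an adjusted p under 0.05 and a fold change over 2, the thresholds of the study. The labels call the replicates biological and do not say whether they were separate transductions, so p-values measure the spread between these samples, which may be technical. Tables and figures used Python 3.11.15, pandas 2.3.3, numpy 2.4.6 and matplotlib 3.10.9. The genes named are the 9 members, the genes of the lists (2-5A pathway, nucleic acid sensors, interferon receptors and factors, interferons, cell type markers, genes within 250 kb) and the 5 genes nearest in pattern. Members and lists were chosen with earlier results of these data known. A few listed genes are not reported here, and the counts leave them out. Alternatives were other pseudocounts, filters, FPKM, scalings, no trend, a replicate block, a fold of 1.5 and each library left out. Coverage per Gb and the sum of *Oas1a* and *Oas1g* were added after the data were seen. The fit was tested on simulated data, whose outcome is not reported here.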

Additional observations from a re-analysis of the deposited data

How the results depend on the processing

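In the alternatives run, each of the 8 tested OAS family genes stayed lower in K382Q cells at an adjusted p under 0.05 (limma), with highest adjusted p-values from 9.75e-05 (*Oasl1*) to 0.00885 (*Oas1g*). The number called was 6, but 7 with a pseudocount of 0.1, where 603 of all 15426 tested genes were called lower. It was 8 with a fold change over 1.5, where 1287 of all tested genes were called lower. With *Oas1a* and *Oas1g* summed it was 5 of 7, and with 1 library left out 5 to 7. *Oas1c* and *Oas3*, and *Oas1g* without K382Q replicate 1, were the genes that fell short of 2-fold. *Oas1f*, at 0 in all K382Q libraries, entered without the filter, where its fitted value is set by the pseudocount. Over all genes 599 were called (403 lower, 196 higher), 889 with a pseudocount of 0.1 and 443 with a pseudocount of 1. The count was 377 with FPKM, 295 with coverage per Gb, 1864 with a fold change over 1.5 and 562 to 616 with 1 library left out. Median-ratio scaling moved the median of all genes from -0.14 to 0.00 and called 296 lower and 287 higher, and quantile normalization 306 and 277. With either scaling the log2 fold changes of the members were smaller, from -1.78 (*Oasl1*) to -0.68 (*Oas1c*) with the first. With the replicate block 604 genes and 6 members were called. Same-numbered libraries did not deviate together (correlations -0.018, 0.051 and 0.022 across genes, and K382Q replicate 1 was nearest to K382R replicate 3). The labels do not say whether same-numbered libraries were processed together. Deviations from means of 3 libraries cannot decide it, and the main fit used no pairing. *Oas1f* and the interferon genes lay near or at 0, and the part of sequencing depth in this was not tested.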
